A study of Mus musculus with 12 samples.

Results

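The nuclear genes of the mitochondrial respiratory chain were examined as a group in mouse cortical neurons that carried a fragment of huntingtin. The group was chosen by gene symbol alone: protein-coding genes that begin with Nduf, Uqcr, Cox4 to Cox8 or Atp5, together with Sdha, Sdhb, Sdhc, Sdhd and Cyc1. It holds 94 of the 41388 genes in the deposited tables. By the complex to which each product belongs, 36 genes fall in complex I, 8 are assembly factors of complex I (Ndufaf1 to Ndufaf8), 4 fall in complex II, 9 in complex III, 20 in complex IV and 17 in complex V. A further 11 pseudogenes with matching symbols were left out. They held at most 21 counts each over all libraries.

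The respiratory chain sits in the inner mitochondrial membrane. Complexes I and II take electrons from NADH and succinate, complex III passes them to cytochrome c, and complex IV hands them to oxygen. The proton gradient that complexes I, III and IV build drives complex V, the ATP synthase. Most subunits are encoded in the nucleus and imported, while a small set is encoded by mitochondrial DNA, so that complexes I, III, IV and V are built from both genomes. Neurons rely on this chain for the ATP that holds their ion gradients, and defects of energy metabolism are a long-studied feature of Huntington disease.

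Primary cortical neurons were taken from Swiss Webster mouse embryos at embryonic day 16, infected with lentivirus after 5 days in vitro and harvested after 10 days in vitro. All groups share the strain, the culture, the infection and the removal of ribosomal RNA before sequencing. The 3 groups were a control vector (labelled empty for 3 of its libraries), exon 1 of huntingtin with 25 glutamines (Htt-25Q, wild type) and exon 1 with 72 glutamines (Htt-72Q, mutant), with 4 libraries in each. The insert is a fragment and not the whole protein, it came from a virus and not from the endogenous locus, and neither the promoter that drives it nor the share of cells infected is given in the sources used here. Libraries are named here by their group and the number in their title, and "preparation" stands for the number that opens each library's description (22, 24, 26, 27_1 or 27), whose meaning the labels do not state. Preparations 22, 24 and 27_1 hold a library of each group, preparation 26 holds control vector 3 and Htt-72Q 3, and preparation 27 holds Htt-25Q 4 alone. Nothing in the labels says that the libraries came from separate litters or cultures, so p-values measure only the spread between these libraries.

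Total counts ran from 12.4 M in Htt-72Q 3 to 27.5 M in Htt-25Q 3. The neuron labels were matched by the markers: all 6 pan-neuronal markers were tested, with a summed CPM (counts relative to the scaled library total) of 4667 to 7503, and astrocyte markers summed to 2423 to 3176 CPM, so the cultures held glial RNA too. Microglia, endothelial and fibroblast markers summed to at most 24.6, 20.5 and 3.6 CPM. A second split ran across the groups: ordered by Ctnnd1, the libraries have their widest gap between the upper 6 (class A) and the lower 6 (class B). Class A holds control vector 1 and 3, Htt-25Q 1, 2 and 4 and Htt-72Q 3, and class B holds the other 6. For Gapdh the class A libraries had 9.16 to 20.3 CPM, and those of class B had 35.4 to 50.2 CPM (on unscaled library totals).

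Of the 94 genes, 89 passed the filter on low counts and were tested. The other 5 were Cox4i2 with 29 counts over all 12 libraries, Cox7b2 with 23, Cox8b with 9, Cox8c with 0 and Ndufa4l2 with 64. These are isoform genes of complex IV whose best known sites of expression are lung (Cox4i2), testis (Cox7b2, Cox8c) and muscle (Cox8b), and Ndufa4l2, which is known as a gene induced by low oxygen. For Cox8c, 0 counts in a library allow up to 3 counts of its total, which is 0.109 to 0.241 CPM over the libraries and covers counting error only.

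Levels between genes were compared per kilobase, as RPKM (CPM per kilobase of gene) on scaled library totals. The highest mean over the 12 libraries was that of Ndufa4, a subunit now placed in complex IV, at 569 ± 173 RPKM (SD over 12 libraries, as for the other levels here). It was followed by the complex IV genes Cox6b1 at 531 ± 156 RPKM and Cox8a at 459 ± 60.3 RPKM and by Atp5a1, the alpha subunit of the soluble part of complex V, at 452 ± 56.4 RPKM. Neighbours in this order differed by less than the larger of their SDs. In complex III the highest level was that of Uqcr10, a small subunit, at 385 ± 145 RPKM, in complex I that of Ndufb9, an accessory subunit of the membrane arm, at 271 ± 66.5 RPKM, and in complex II that of Sdhd, a membrane anchor, at 139.7 ± 36.6 RPKM.

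The lowest tested levels were those of Atp5g2 at 0.51 ± 0.33 RPKM in complex V, Cox6b2, known from testis, at 0.77 ± 0.68 RPKM in complex IV and Ndufab1, the mitochondrial acyl carrier protein, at 0.83 ± 0.18 RPKM in complex I. In complex III the lowest was Uqcrq, a small accessory subunit, at 17.2 ± 5.91 RPKM, and in complex II it was Sdhc, the other membrane anchor, at 45.5 ± 8.29 RPKM. Some genes of the chain have near copies elsewhere in the genome. In Atp5g2, 38.3% of its 50-base words also occur in other genes, against 9.27% for Ndufab1 and 0% for Uqcrq and Cox6b2. Over the 94 genes, 20 share more than 10% of their words with other genes and 35 have at least 1 pseudogene copy of 90% identity over 150 bases or more, with 15 such copies for Atp5g1. How reads with several matches were counted is not given in the sources used here, so the levels of these genes are uncertain. Ranks per kilobase also depend on the deposited gene lengths, such as 6883 bases for Ndufab1, 1831 for Uqcrq and 876 for Uqcrb. Uqcrq had 6703 counts over all libraries and Uqcrb 6646. Uqcrq was therefore the lowest of complex III by its length and not by its counts.

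The isoform genes showed which version of each subunit the cultures carried. Cox4i1, the ubiquitous form of the subunit, had 367 ± 108 RPKM and Cox4i2 0.19 ± 0.22 RPKM. Cox6a1 had 389 ± 52.0 RPKM, and Cox6a2, the form known from heart and skeletal muscle, had 7.34 ± 1.76 RPKM. Cox6b1 stood at 531 RPKM against 0.77 RPKM for Cox6b2. Cox7a2 had 225 ± 64.6 RPKM, its relative Cox7a2l, known from supercomplexes of the chain, had 67.3 ± 15.2 RPKM, and the muscle form Cox7a1 had 1.78 ± 1.15 RPKM. Cox7b had 173 ± 50.7 RPKM and Cox8a 459 ± 60.3 RPKM, while Cox7b2 and Cox8b lay at 0.21 ± 0.26 and 0.11 ± 0.19 RPKM. In each pair the ubiquitous form was higher in all 12 libraries.

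**Figure D1:**
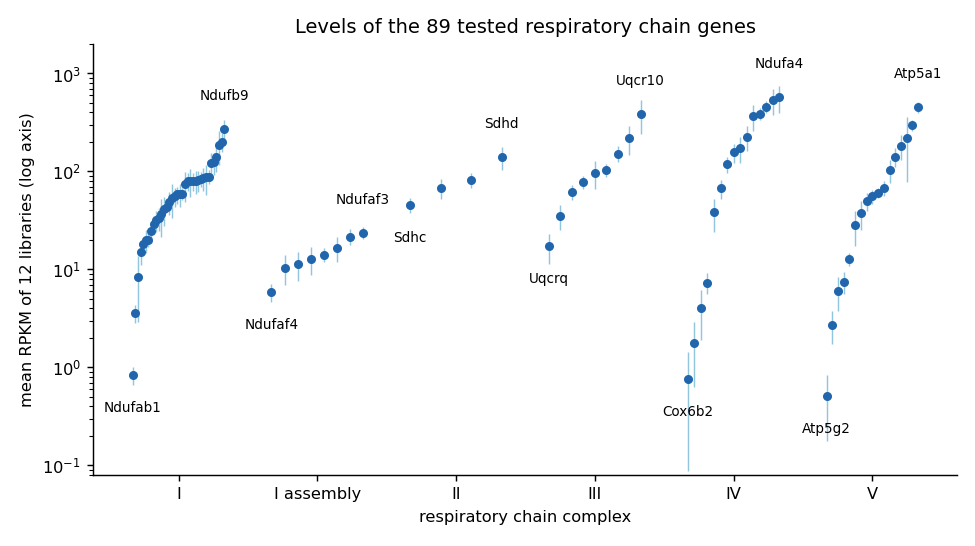
Mean RPKM over 12 libraries (log axis) of the 89 tested genes, ordered within each complex, with bars of 1 SD between libraries. Ndufa4 (569 RPKM) and Atp5a1 (452 RPKM) lead complexes IV and V, and Atp5g2 (0.51 RPKM) is the lowest.

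Summed over the 94 genes, CPM scaled by TMM (trimmed mean of M values, which sets library sizes on a common scale) was 7635, 11515, 11765 and 13574 in control vector 1 to 4. It was 10105, 10441, 12068 and 10956 in Htt-25Q 1 to 4 and 11718, 13620, 15768 and 11642 in Htt-72Q 1 to 4. These average to 11122 ± 2499.5, 10893 ± 858 and 13187 ± 1949 CPM in the same order (SD, n = 4 each). The groups overlapped, with the lowest sum in control vector 1 and the highest in Htt-72Q 3.

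These libraries stood apart in most single genes too. Control vector 1 was the lowest of the 12 libraries for 72 of the 89 tested genes, and Htt-72Q 3 was the highest for 60. Against each gene's own mean over the libraries, 88 of the 89 genes were below in control vector 1, with a median of -0.67 on the log2 scale, and 80 were above in Htt-72Q 3, with a median of 0.53. The other 10 libraries had medians between -0.13 and 0.21.

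Each complex had its highest group mean in Htt-72Q. Complex I summed to 2910 ± 712 CPM in control vector, 2845 ± 226 CPM in Htt-25Q and 3532 ± 513 CPM in Htt-72Q (SD, n = 4 each). Complex II summed to 732 ± 140.0, 699 ± 87.3 and 903 ± 94.9 CPM, complex III to 1171 ± 303, 1125 ± 128 and 1409 ± 188 CPM, complex IV to 2261 ± 605, 2213 ± 203 and 2773 ± 587 CPM, and complex V to 3884 ± 720.1, 3844 ± 225 and 4384 ± 575 CPM. The assembly factors of complex I summed to 164 ± 34.2, 167 ± 6.16 and 186 ± 39.6 CPM. The Htt-72Q and control vector ranges overlapped in all 6 sums.

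**Figure D2:**
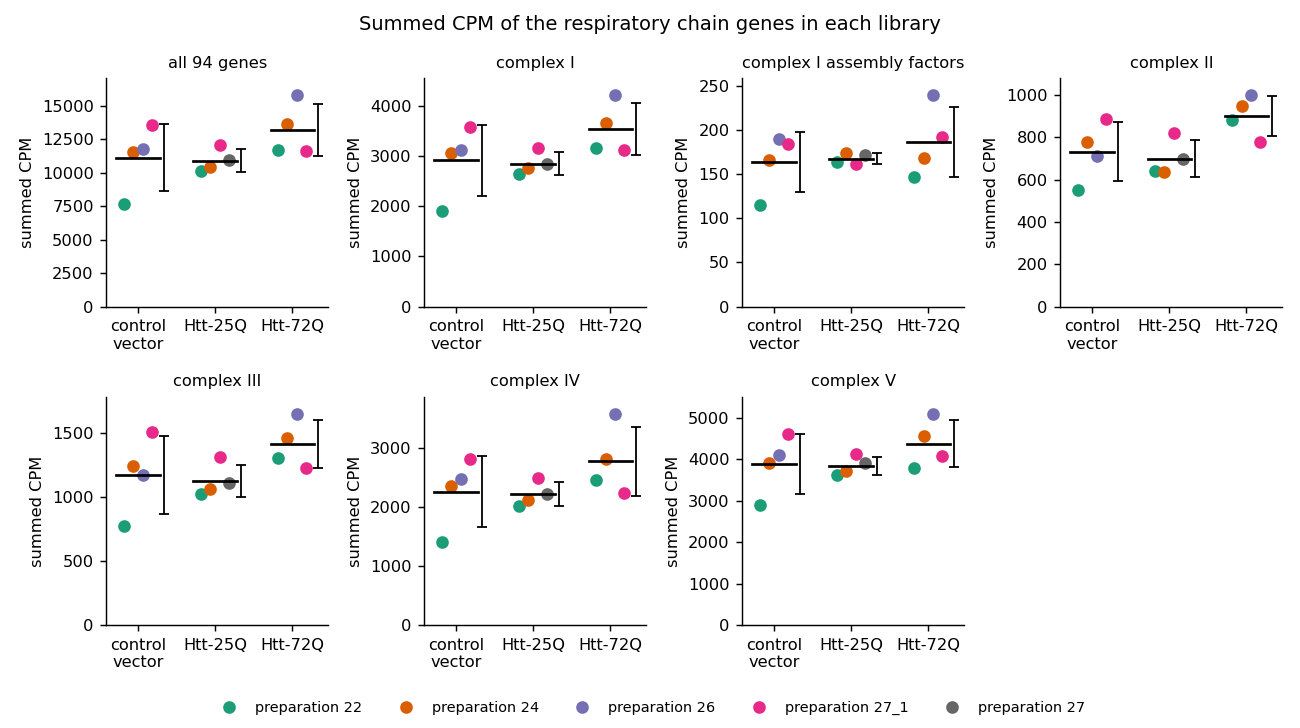
Summed TMM-scaled CPM of all 94 genes and of each complex in the 12 libraries; points are libraries coloured by preparation, horizontal lines are group means and bars are 1 SD (n = 4). Control vector 1 (7635 CPM) is the lowest and Htt-72Q 3 (15768 CPM) the highest in the sum of all genes.

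The first comparison asked how the mutant fragment differed from the control vector. With 1 fit of edgeR's quasi-likelihood test over all genes, 2 of the 89 genes were called higher in Htt-72Q at a Benjamini-Hochberg adjusted p under 0.05 and 0 lower. Among all 14707 genes tested, 9.44% were called higher and 13.7% lower, so the share of respiratory chain genes called (2.25% higher) lay below that of all genes in both directions. At an unadjusted p under 0.05, 12 of the 89 (13.5%) were higher and 0 lower, beside 16.3% and 19% of all genes tested. DESeq2 called 5 higher and 0 lower, and its share over all genes is not given. Of the 89 estimates, 76 lay above 0 and 13 below, with a median log2 fold change of 0.31, beside 0.03 over all genes tested. The medians were 0.32 in complex I, 0.28 in complex II, 0.31 in complex III, 0.28 in complex IV and 0.28 in complex V, and 0.09 for the assembly factors.

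Ndufaf1, an assembly factor that helps build the membrane arm of complex I, lay at 9.78, 17.8, 18.6 and 17.03 CPM in control vector 1 to 4, at 17.4, 18.2, 13.4 and 16.9 CPM in Htt-25Q 1 to 4 and at 19.1, 23.3, 34.1 and 25.5 CPM in Htt-72Q 1 to 4. All 4 Htt-72Q libraries were above all libraries of the other groups. Ndufaf1 rose in Htt-72Q against control vector by 0.69 ± 0.22 (log2 fold change ± SE, n = 4 each; adjusted p = 0.0322, edgeR), a fold of 1.62. The gene lies on chromosome 2 (GRCm38, 119655446 to 119662827, minus strand).

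Ndufb7, an accessory subunit of the membrane arm of complex I, lay at 62.6, 81.7, 78.5 and 94.7 CPM in control vector 1 to 4, at 76.4, 71.04, 88.01 and 73.2 CPM in Htt-25Q 1 to 4 and at 109, 117, 145 and 81.6 CPM in Htt-72Q 1 to 4. Htt-72Q 4 lay within the range of the other groups, and the other 3 Htt-72Q libraries were above it. Ndufb7 rose against control vector by 0.51 ± 0.17 (adjusted p = 0.0387, edgeR), a fold of 1.43. It lies on chromosome 8 (GRCm38, 83566671 to 83571626, plus strand). No other gene shares a 50-base word or an exon base with Ndufaf1 or Ndufb7 in the annotation used. By the looser measure of 90% identity over 150 bases, Ndufb7 has 1 pseudogene copy and Ndufaf1 has 0.

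The next smallest p-values did not pass. Uqcrb had a log2 fold change of 0.55 ± 0.19 (adjusted p = 0.0519), Ndufaf6 of 0.67 ± 0.23 (adjusted p = 0.0529) and Atp5g1 of 0.75 ± 0.28 (adjusted p = 0.0679, edgeR throughout). Atp5g1 belongs to the small family that encodes the ring-forming c subunit of the ATP synthase. It lay at 7.71, 8.25, 15.8 and 9.40 CPM in control vector 1 to 4 and at 12.7, 15.8, 25.2 and 15.7 CPM in Htt-72Q 1 to 4, and control vector 3 lay inside the Htt-72Q range. Ndufaf1 and Ndufaf6 were the 2 genes of the 89 whose Htt-72Q libraries all exceeded all control vector libraries, and 0 were all below. Over all genes tested those shares were 10.1% and 13.6%.

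Both calls depended on single libraries. Without control vector 1 the adjusted p was 0.0651 for Ndufaf1 and 0.0933 for Ndufb7, without control vector 2 it was 0.0514 and 0.0816, without Htt-72Q 2 0.0531 and 0.0971, and without Htt-72Q 3 0.104 and 0.126, so that 0 of the 89 genes were called higher in each of these fits. Ndufb7 alone was also lost without control vector 3 (0.0773), Htt-25Q 1 (0.0516), Htt-25Q 4 (0.0587) or Htt-72Q 1 (0.0645), and Ndufaf1 alone without Htt-72Q 4 (0.0530). Without control vector 4 the count of genes called higher was 7, and without Htt-72Q 1 it was 6; it was 1 without Htt-25Q 1 or Htt-25Q 4. The median went from 0.31 to 0.13 without control vector 1 and to 0.14 without Htt-72Q 3, and to 0.0057 without both, where 0 genes were called higher and 2 lower by edgeR (Atp5l, a subunit of the membrane part of the ATP synthase, at -1.15, and Ndufb2, an accessory subunit of complex I, at -0.53). Atp5l was also the 1 gene called lower without Htt-72Q 3 alone, at -1.04. It has 13 pseudogene copies, so its level is uncertain. The fit without both libraries was chosen after seeing the data. The share of all genes called is not given for the fits that leave out libraries. Their counts thus do not separate a change of these genes from a change over all genes.

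**Figure D3:**
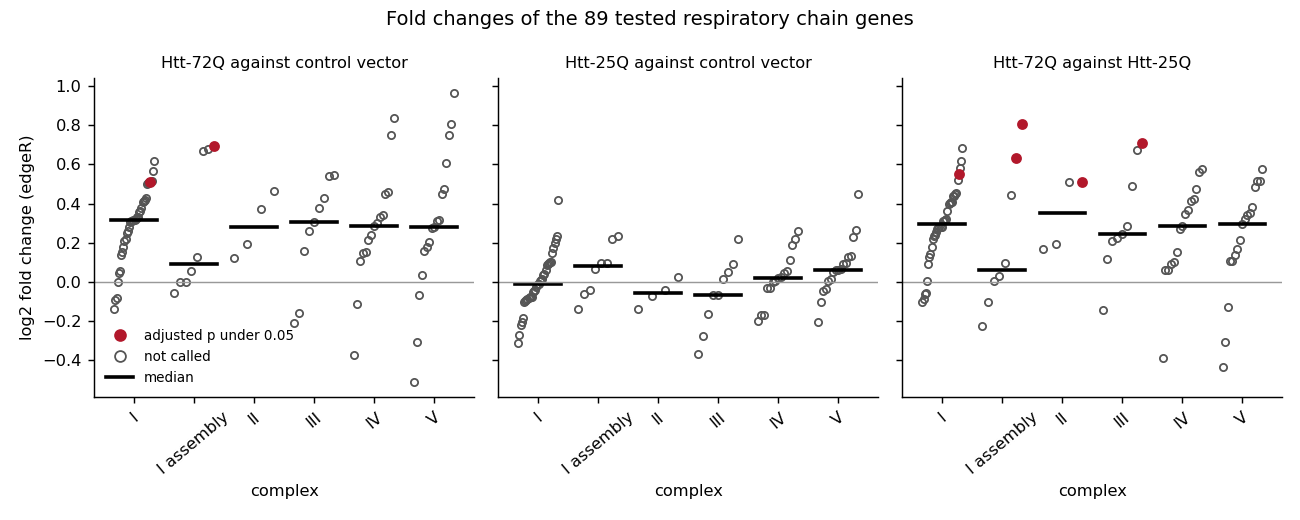
Log2 fold changes of the 89 tested genes in each comparison by complex, ordered within a complex; filled points passed an adjusted p of 0.05 and bars are medians. Most points lie above 0 in both Htt-72Q comparisons (76 and 78 of 89), and 49 of 89 do in Htt-25Q against control vector.

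The numbers in the titles and the preparations were taken to pair Htt-72Q with control vector. The deviations of same-numbered libraries from their group means correlated at 0.27 to 0.50. Those of differently numbered libraries of these groups correlated at 0.0952 or less. With preparation as a block, 20 of the 89 genes (22.5%) were called higher in Htt-72Q against control vector and 0 lower, beside 13.4% higher and 17.2% lower over all genes tested in the same fit. The 20 genes were 8 of complex I, 3 assembly factors, 1 of complex II, 3 of complex III, 2 of complex IV and 3 of complex V, and they included both genes called without the block. The 6 with the smallest p-values are given singly, a choice made after their values were seen. Uqcrb, an accessory subunit of complex III, had 0.56 ± 0.14 (adjusted p = 0.00878, edgeR with the block). Atp5g1 had 0.77 ± 0.19 (adjusted p = 0.0092), Ndufaf1 0.70 ± 0.18 (adjusted p = 0.0106), Ndufaf8, an assembly factor, 0.67 ± 0.18 (adjusted p = 0.0124), Ndufa8, an accessory subunit of complex I, 0.51 ± 0.15 (adjusted p = 0.0189), and Uqcrfs1, the Rieske iron-sulfur protein of complex III, 0.38 ± 0.11 (adjusted p = 0.0201). The other 14 had log2 fold changes of 0.43 to 0.71 and adjusted p-values of 0.0205 to 0.0484. They were Ndufb5, Ndufb7, Ndufb8, Ndufb11, Ndufa13, Ndufs6 and Ndufv2 of complex I, the assembly factor Ndufaf6, Sdhd of complex II, Uqcr11 of complex III, Cox6b1 and Ndufa4 of complex IV and Atp5h and Atp5j2 of complex V. The median under the block was 0.31, the same as without it. No fit combined the block with leaving out a library. With the title number as the block, which is the same pairing for these groups but not for Htt-25Q, 10 genes were called higher. For that fit the share over all genes is not given.

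Within the preparations the genes did not move alike. Htt-72Q minus control vector was above 0 for 80 of the 89 genes in preparation 22, with a median of 0.57 on the log2 scale, for 77 in preparation 24, with a median of 0.27, and for 80 in preparation 26, with a median of 0.46. In preparation 27_1 it was above 0 for 30 genes and below for 59, with a median of -0.12. Of the 20 genes called with the block, Ndufa13, Ndufs6, Ndufb7, Uqcr11, Sdhd, Ndufb8 and Ndufa4 lay below 0 in preparation 27_1. Their values there were -0.36 (Ndufa13) to -0.09 (Ndufa4), and the rest of the 20 lay above 0. The medians over all genes tested lay between -0.01 and 0.04 in the 4 preparations. Preparation 22 sets a class B library against a class A library, and in the other 3 both libraries are of 1 class. Across the 4 preparations 23 genes (25.8%) were above 0 in each, beside 22.7% of all genes tested, and 1, Cox6a2, was below 0 in each (1.12%), beside 23.9%. Cox6a2 had a log2 fold change of -0.37 ± 0.24 (adjusted p = 0.296, edgeR without the block).

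**Figure D4:**
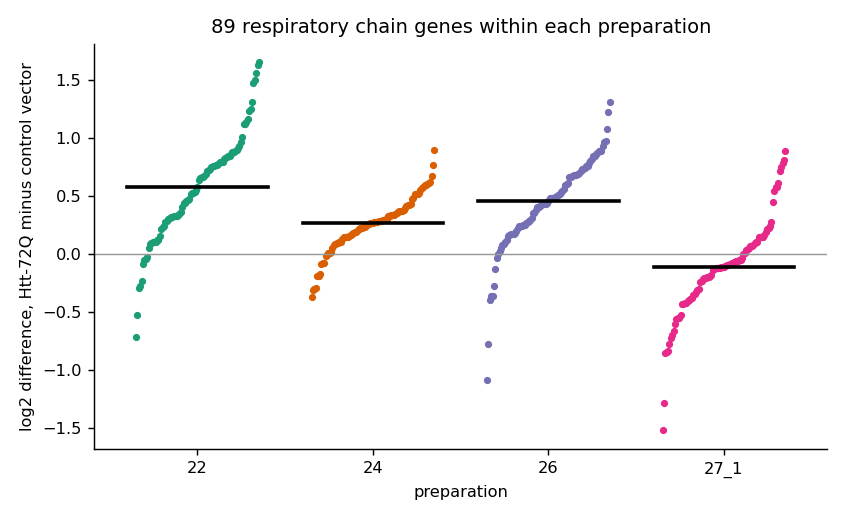
Log2 difference of TMM-scaled CPM, Htt-72Q minus control vector, for the 89 tested genes within each preparation that holds both groups; points are genes in rising order and bars are medians. The medians are 0.57, 0.27 and 0.46 in preparations 22, 24 and 26 and -0.12 in preparation 27_1.

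Regulatory sequence is shown for genes of the comparison above, because promoters of this group are known to hold sites for the factors NRF1, GABP and YY1, which are background here. RefSeq promoter windows (GRCm38.p6, 250 bases before to 50 after a transcript start) were matched for 76 of the 94 genes, in 81 windows. Ndufaf6, Uqcrb and 16 others had no entry. The motifs searched on both strands were GCGCATGCG for NRF1, CCGGAAGT for GABP and other ETS factors and AAGATGGCG for YY1. NRF1 and its reverse complement overlap in part, so a longer palindrome counts on both strands. The windows of Ndufb7 (chr8:83566508-83566807, plus strand) and Ndufaf1 (chr2:119662785-119663084, minus strand), which were called above, hold none of these motifs. Those of Uqcr11, a small subunit of complex III (chr10:80406772-80407071, minus strand), and Ndufaf8 (chr11:120098684-120098983, plus strand), which were called with the preparation block only and were picked after their values were seen, hold them, in capitals: ETS and then NRF1 (reverse) in Uqcr11 and YY1 in Ndufaf8.
Ndufb7: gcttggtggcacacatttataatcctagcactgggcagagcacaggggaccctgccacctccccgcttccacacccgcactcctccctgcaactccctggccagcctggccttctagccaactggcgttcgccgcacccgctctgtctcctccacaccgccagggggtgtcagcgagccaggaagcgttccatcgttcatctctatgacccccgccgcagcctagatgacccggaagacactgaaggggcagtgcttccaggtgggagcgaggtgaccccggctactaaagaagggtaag
Ndufaf1: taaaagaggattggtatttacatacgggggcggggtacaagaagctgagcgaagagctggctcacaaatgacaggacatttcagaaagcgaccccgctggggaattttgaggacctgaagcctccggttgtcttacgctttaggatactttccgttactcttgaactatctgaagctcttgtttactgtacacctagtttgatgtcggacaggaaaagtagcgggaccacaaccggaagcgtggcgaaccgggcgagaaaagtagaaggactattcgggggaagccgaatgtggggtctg
Uqcr11: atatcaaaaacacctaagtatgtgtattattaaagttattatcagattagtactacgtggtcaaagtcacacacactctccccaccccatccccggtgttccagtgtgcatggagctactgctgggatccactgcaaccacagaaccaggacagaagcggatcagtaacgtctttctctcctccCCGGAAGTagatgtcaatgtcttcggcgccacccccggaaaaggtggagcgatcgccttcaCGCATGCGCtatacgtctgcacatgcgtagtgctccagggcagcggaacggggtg
Ndufaf8: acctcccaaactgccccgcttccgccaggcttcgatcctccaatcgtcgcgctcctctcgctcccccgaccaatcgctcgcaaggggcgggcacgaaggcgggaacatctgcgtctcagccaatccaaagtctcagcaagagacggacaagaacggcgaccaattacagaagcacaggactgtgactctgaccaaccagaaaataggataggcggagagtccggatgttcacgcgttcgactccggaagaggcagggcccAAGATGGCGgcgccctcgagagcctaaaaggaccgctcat

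The NRF1 letters were found in 10 of the 81 windows (12.3%), against 575 of all 32851 windows in the table (1.75%). The YY1 letters were found in 8 windows (9.88%), against 1.4% of all windows, and the ETS letters in 5 (6.17%), against 3.89%. Together 22 of the 81 windows (27.2%) held at least 1 of the motifs, against 6.69% of all windows. Among the other genes called with the preparation block, Ndufa8, Ndufs6, Atp5h and Atp5j2 had a window with a motif. The windows of Ndufb5, Ndufb8, Ndufb11, Ndufa13, Ndufv2, Sdhd, Uqcrfs1, Cox6b1, Ndufa4 and Atp5g1 held none. A link between motifs and calls was not tested. A match describes letters in a window and is no evidence of binding in these cells, and the table of all windows also holds promoters of other kinds of genes.

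The second comparison set the mutant against the wild-type fragment, and it uses the same Htt-72Q libraries as the first. Of the 89 genes 5 (5.62%) were called higher in Htt-72Q than in Htt-25Q and 0 lower, beside 9.07% higher and 13.4% lower over all genes tested. At an unadjusted p under 0.05, 13 genes (14.6%) were higher and 0 lower, beside 15.7% and 18.4% of all genes tested. DESeq2 called 5 of the 89 genes higher and 0 lower, with no share over all genes given. The median log2 fold change was 0.28, beside 0.03 over all genes tested, with 78 genes above 0 and 11 below. By complex the medians were 0.30 in I, 0.35 in II, 0.25 in III, 0.28 in IV and 0.30 in V, and 0.06 for the assembly factors.

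Uqcrb lay at 22.7, 25.3, 28.3 and 22.6 CPM in Htt-25Q 1 to 4 and at 32.0, 39.1, 51.3 and 39.3 CPM in Htt-72Q 1 to 4, with 18.6, 27.2, 30.1 and 35.1 CPM in control vector 1 to 4. All Htt-72Q libraries exceeded all Htt-25Q libraries, and control vector 4 lay inside the Htt-72Q range. Uqcrb rose by 0.71 ± 0.19 against Htt-25Q (adjusted p = 0.0155, edgeR), a fold of 1.63. It lies on chromosome 13 (GRCm38, 66900617 to 66905378, minus strand), and 25.5% of its 50-base words occur in other genes. Uqcrb has 4 pseudogene copies, so its level is uncertain.

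Ndufaf6, an assembly factor of complex I, lay at 8.71, 11.5, 10.6 and 9.34 CPM in Htt-25Q 1 to 4, at 17.2, 16.7, 21.4 and 14.9 CPM in Htt-72Q 1 to 4 and at 5.77, 13.6, 11.5 and 13.5 CPM in control vector 1 to 4. Each Htt-72Q library was above each library of the other groups. Ndufaf6 rose by 0.80 ± 0.23 against Htt-25Q (adjusted p = 0.0235), a fold of 1.75, with chromosome 4 as its place (GRCm38, 11051045 to 11076205, minus strand).

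Sdha, the flavoprotein that oxidises succinate in complex II and also in the citric acid cycle, lay at 204, 184, 291 and 225 CPM in Htt-25Q 1 to 4, at 382, 357, 287 and 261 CPM in Htt-72Q 1 to 4 and at 226, 278, 206 and 284 CPM in control vector 1 to 4. Htt-25Q 3 was above Htt-72Q 3 and 4, so the groups overlapped. Sdha rose by 0.51 ± 0.17 against Htt-25Q (adjusted p = 0.0420), a fold of 1.42, and had 0.37 ± 0.17 against control vector (adjusted p = 0.126). It lies on chromosome 13 (GRCm38, 74322254 to 74350280, minus strand).

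The remaining calls were Ndufb7, which rose by 0.55 ± 0.17 against Htt-25Q (adjusted p = 0.0283), and Ndufaf1, which rose by 0.63 ± 0.22 (adjusted p = 0.0497). Their Htt-25Q values, given above, overlapped the Htt-72Q values for Ndufb7 and not for Ndufaf1. Over the 89 genes, 9 (10.1%) had all Htt-72Q libraries above all Htt-25Q libraries and 0 had all below, beside 11.6% and 15.1% of all genes tested.

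**Figure D5:**
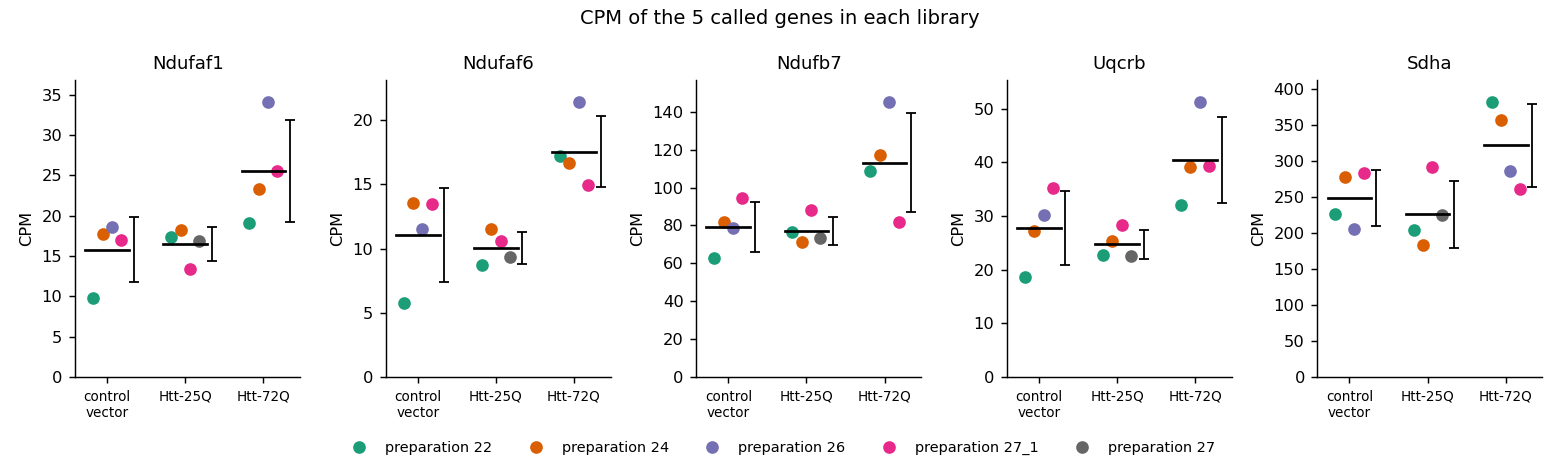
TMM-scaled CPM of the 5 called genes in the 12 libraries; points are libraries coloured by preparation, lines are group means and bars are 1 SD (n = 4). Htt-72Q lies above both other groups in every library for Ndufaf1 (19.1 to 34.1 CPM) and Ndufaf6 (14.9 to 21.4 CPM), and Htt-72Q 4 (81.6 CPM) overlaps them for Ndufb7.

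With preparation as a block, which gives Htt-25Q 4 no weight because it is alone in its preparation, 3 genes were called higher than in Htt-25Q (Uqcrb, Ndufaf6 and Sdha) and 0 lower, beside 7.84% higher and 13.4% lower over all genes tested. Ndufb7 (adjusted p = 0.102) and Ndufaf1 (adjusted p = 0.104, edgeR) were not called there. Without the block, leaving out Htt-25Q 4 left 0 calls, and the adjusted p was then 0.0533 for Uqcrb, 0.0681 for Ndufaf6, 0.0825 for Ndufb7, 0.0976 for Sdha and 0.101 for Ndufaf1. In the fits that left out another library Uqcrb was called in each. The count was 1 without Htt-25Q 1, 2 without Htt-25Q 2, Htt-72Q 2 or Htt-72Q 3, 3 without control vector 2, 8 without Htt-25Q 3 and 12 without control vector 1. These counts too stand without the share over all genes. Without Htt-72Q 3 the median was 0.13. Within preparations Htt-72Q minus Htt-25Q was above 0 for 47 of 89 genes in preparation 22 (median 0.01), 69 in preparation 24 (median 0.29) and 56 in preparation 27_1 (median 0.06). Preparations 22 and 24 set a class B library against a class A library. In preparation 27_1 both libraries are of class B. Htt-72Q 3 and Htt-25Q 1, 2 and 4 are of class A and the rest are of class B. Class and group are thus partly mixed in this comparison, and the part of class was not tested further.

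The third comparison, Htt-25Q against control vector, asked what the wild-type fragment does. Of the 89 genes 0 were called in either direction by edgeR and 0 had an unadjusted p under 0.05, and 0% of all genes tested were called (0.537% higher and 0.34% lower at the unadjusted threshold). The median log2 fold change was 0.01, with 49 genes above 0 and 40 below. DESeq2 and each of the other alternatives tried also called 0 of the genes. The main fit holds no term for preparation, and a count of 0 does not show that the wild-type fragment changes nothing. The smallest p-values belonged to Ndufa9, a complex I subunit at the joint of its arms, at -0.31 ± 0.21, Uqcr10 at -0.37 ± 0.32, Ndufs8, an iron-sulfur subunit of complex I, at -0.22 ± 0.21, Atp5g1 at 0.27 ± 0.28 and Ndufs7, another iron-sulfur subunit, at -0.20 ± 0.21. All had an adjusted p of 1. Groups that did not overlap were found for 0 genes, beside 0.673% higher and 0.32% lower over all genes tested. Within preparations the genes again did not move alike: 84 of 89 lay above 0 in preparation 22 (median 0.51), 44 in preparation 24 (median -0.02) and 7 in preparation 27_1 (median -0.18).

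Complex II and cytochrome c1 gave few calls. Sdhb, the iron-sulfur subunit of complex II, had 182 ± 48.5 CPM in control vector, 174 ± 30.7 CPM in Htt-25Q and 198 ± 12.3 CPM in Htt-72Q, with a log2 fold change of 0.12 ± 0.18 against control vector (adjusted p = 0.663). Sdhc had 0.19 ± 0.17 (adjusted p = 0.459). Sdhd had 0.46 ± 0.19 against control vector (adjusted p = 0.0906) and 0.51 ± 0.19 against Htt-25Q (adjusted p = 0.0672), with all Htt-72Q libraries (185 to 297 CPM) above all Htt-25Q libraries (144 to 176 CPM). With the preparation block Sdhd was called higher than in control vector, at 0.47 ± 0.15 (adjusted p = 0.0326, edgeR). Cyc1, the haem protein of complex III that hands electrons to cytochrome c, pointed the other way from most of the group without passing: 71.3, 104, 98.1 and 121 CPM in control vector 1 to 4 and 77.4, 98.2, 89.2 and 75.9 CPM in Htt-72Q 1 to 4, a log2 fold change of -0.21 ± 0.15 (adjusted p = 0.34).

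In complex IV, 0 of 15 tested genes were called in any comparison by edgeR without a block or by DESeq2, which gave no adjusted p for 1 of them, and 1, Cox6a1, had an unadjusted p under 0.05 in edgeR (against Htt-25Q). With the preparation block edgeR called Cox6b1 (0.45 ± 0.15, adjusted p = 0.0424) and Ndufa4 (0.44 ± 0.15, adjusted p = 0.0426) higher in Htt-72Q than in control vector. Cox4i1 lay at 309, 626, 489 and 765 CPM in control vector 1 to 4, at 389, 423, 693 and 439 CPM in Htt-25Q 1 to 4 and at 734, 710, 787 and 470 CPM in Htt-72Q 1 to 4. The groups overlapped, and the log2 fold change against control vector was 0.30 ± 0.25 (adjusted p = 0.425, edgeR). Without the block the other isoform genes tested had log2 fold changes against control vector from -0.37 (Cox6a2) to 0.84 (Cox6b2), with adjusted p-values of 0.179 (Cox6b1) to 0.924 (Cox7a1). In complex V, 0 of 17 genes were called by edgeR without a block over all libraries, 1 (Atp5g1) had an unadjusted p under 0.05 against control vector, and DESeq2 called that gene. With the preparation block edgeR called Atp5g1, Atp5h, a subunit of the peripheral stalk (0.58 ± 0.18, adjusted p = 0.0251), and Atp5j2, a subunit of the membrane part (0.49 ± 0.17, adjusted p = 0.0432). Atp5a1, the most abundant gene of that complex per kilobase, had 1436.5 ± 252 CPM in control vector, 1338 ± 146 CPM in Htt-25Q and 1472 ± 130 CPM in Htt-72Q, a log2 fold change of 0.04 ± 0.13 (adjusted p = 0.877).

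The classes of libraries gave no common direction over the respiratory chain genes. With class as a term beside group, 0 of the 89 genes and 12 of all genes were called for class. By this term 46 of the genes were higher in class B and 43 in class A. The median class term was 0.014, beside -0.00997 over all genes tested. Uqcr10 lay at 107 and 167 CPM in control vector 1 and 3 (class A), at 288 and 335 CPM in control vector 2 and 4 (class B), at 144, 134 and 144 CPM in Htt-25Q 1, 2 and 4 (class A) and at 273 CPM in Htt-25Q 3 (class B). In Htt-72Q it was 317, 305 and 186 CPM in class B libraries 1, 2 and 4 and 299.7 CPM in class A library 3. The class B mean was 284 CPM and the class A mean 166 CPM, with a class term of 0.68 (adjusted p = 0.181, edgeR). The opposite order was seen for Atp5mpl, a small subunit of the ATP synthase, with 99.5 CPM in class A and 59.6 CPM in class B. Cox6c, a small subunit of complex IV, had 164 and 109 CPM. Both were chosen after their values were seen, and their class terms did not pass (adjusted p = 0.223 and 0.183, edgeR). Class is uneven over the groups, so these class means also mix groups. With the class term 4 genes were called higher in Htt-72Q than in control vector, with no share over all genes given. The part of class in the results was not tested further.

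The messenger RNAs of mitochondrial DNA, which supply the other subunits of the same complexes, had medians below 0. Of these 13 messenger RNAs 7 were tested, and the other 6 are listed at 0 counts in every library. The medians thus describe 7 of the 13 only. How reads with several matches were handled is not given, so the levels of these messenger RNAs and of Gapdh are uncertain. Against control vector 0 of 7 were called, with a median of -0.40, and 0 of 7 against Htt-25Q, with a median of -0.35, and 0 of 7 had an unadjusted p under 0.05 in either comparison (edgeR). Their part in the nuclear values was not tested. On unscaled library totals mt-Nd2, a complex I subunit, had 252 to 376 CPM in the class A libraries, against 71.4 to 164 CPM for class B. Class and not group separated its values.

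Other genes that build or feed the chain were counted beside the 9.44% of all genes called higher and the 13.7% called lower. Of 43 tested assembly factors outside the symbol rule, 5 (11.6%) rose and 1 fell in Htt-72Q against control vector (median 0.22), led by Surf1 at 0.69 ± 0.13 (adjusted p = 0.0018) and Sco1 at 0.77 ± 0.15 (adjusted p = 0.0021), both of which serve the assembly of complex IV, while Lyrm7, which helps insert the Rieske protein into complex III, fell by 1.19 ± 0.28 (adjusted p = 0.0069, edgeR). The numbers against Htt-25Q were 6 and 1, and 3 and 1 with the preparation block. Of 20 genes for electron carriers and their synthesis, 4 rose and 2 fell (median 0.13), with Coq4 at -0.58 and Coq8b at -0.58 and Coq8a at 0.78, all acting in the making of ubiquinone. Of 75 mitochondrial ribosomal protein genes 8 (10.7%) rose and 0 fell (median 0.25), with Mrpl21 at 0.68, Mrps9 at 0.57 and Mrpl39 at 0.48. Of 24 pyruvate dehydrogenase and citric acid cycle genes 2 (8.33%) rose, Pdhb at 0.44 and Suclg1 at 0.50 (median 0.05). Glycolysis gave 1 of 19, Pfkl at 0.59 (median 0.08), and the regulators of mitochondrial biogenesis gave 1 of 15, Tfam, the factor that packages mitochondrial DNA, at 0.42 (median 0.03). With the preparation block 13.4% of all genes tested were called higher and 17.2% lower against control vector. In that fit 19 of the 75 mitochondrial ribosomal protein genes rose, as did 4 of the citric acid cycle list and 2 biogenesis regulators. Of the glycolysis genes 1 rose and 1 fell. Against Htt-25Q with the block, 1 of the 75 ribosomal protein genes rose, beside 7.84% of all genes tested. In Htt-25Q against control vector edgeR called 0 genes of these lists, and 1, in glycolysis, had an unadjusted p under 0.05.

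Markers of cell types moved in the same Htt-72Q libraries. Against control vector 5 of 7 excitatory neuron markers fell, with a median of -1.39, and their summed level was 398 to 582 CPM in Htt-72Q, 840 to 1161 CPM in control vector and 819 to 1288 CPM in Htt-25Q. Among them were Neurod6 at -1.5 and Slc17a7, a vesicular glutamate transporter, at -1.39. Of the other 2 markers, named after their values were seen, Slc17a6, another vesicular glutamate transporter, was at 0.37 ± 0.15 (adjusted p = 0.0932) and Neurod2 at -0.50 ± 0.20 (adjusted p = 0.0863, edgeR). Of 6 pan-neuronal markers 4 fell, and the sums were 4667 to 4870.5 CPM in Htt-72Q, 6476 to 7503 CPM in control vector and 5932 to 6936 CPM in Htt-25Q. Of 6 inhibitory neuron markers 3 fell, led by Gad1 at -1.33, while Dlx2, named after its values were seen, was at 0.94 ± 0.40 (adjusted p = 0.108, edgeR) with 286 counts over all libraries. By edgeR, astrocyte markers had 0 of 8 called and 1 at an unadjusted p under 0.05 (median -0.02; 2505 to 2916 CPM in Htt-72Q and 2695 to 3176 CPM in control vector), the oligodendrocyte lineage had 0 of 7 called and 1 at the unadjusted threshold, and 1 of 6 progenitor and dividing cell markers rose (Top2a at 0.35). Of 3 tested endothelial and mural markers 1 was called lower, and the 1 tested microglia marker was not called. Over all genes tested 9.44% were called higher and 13.7% lower. With the preparation block 1 excitatory marker was called higher and 6 lower. In that fit 4 inhibitory, 4 pan-neuronal, 1 astrocyte, 2 oligodendrocyte lineage and 1 endothelial or mural marker were called lower. The 1 tested microglia marker and 2 progenitor and dividing cell markers were called higher. With the block the shares over all genes were 13.4% higher and 17.2% lower. In bulk RNA fewer cells of a type and less RNA per cell cannot be told apart, and the part of cell makeup in the respiratory chain values was not tested.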

How the data were processed

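Counts of reads per gene were deposited by the authors for each of the 12 libraries. CPM and RPKM in the same files were also made by the authors. Recomputed from the counts they differed by no more than 5.09e-10 (CPM) and 3.2e-10 (RPKM), and the deposited counts were the input here. Per the submitters' processing notes, STAR 2.0.4b, Subread, featureCounts 1.45 and the build GRCm38 were used. The sources used here give neither strandedness nor the annotation release, nor how reads with several matches were handled. Per the labels, each library was sequenced in 2 lanes that were merged before counting.

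Symbols and positions came from GENCODE M21, which holds 40340 of the 41388 gene identifiers. The main test was edgeR 4.0.16 (R 4.3.3), the two-sided quasi-likelihood test in 1 fit of the 3 groups, with TMM scaling and filterByExpr at its minimum count of 10, which left 14707 genes and 9 residual degrees of freedom. P-values were adjusted over all genes tested by Benjamini-Hochberg, and genes under 0.05 are called. Each SE is the log2 fold change divided by the square root of its F value. CPM and RPKM in the report were recomputed on TMM-scaled totals, with the deposited gene lengths. The CPM of Gapdh and mt-Nd2 and the order by Ctnnd1 are the exception and use unscaled library totals. The test was tested on simulated data with known changes. No 2 libraries were duplicates (smallest chi-square per degree of freedom 9).

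The genes and lists were chosen with earlier results of these data known. Genes are named if called, if among the 5 smallest p-values of a comparison with fewer than 5 calls, if highest or lowest in a complex by mean RPKM, or if they are Sdh genes, Cyc1 or isoform genes; in other lists at most 3 called genes with the smallest p are named, and a marker that this rule names is not reported here. Preparation was taken to pair libraries: the deviations of same-preparation libraries from their group means correlated at 0.118 to 0.524 in all 10 pairs. Some libraries of different preparations correlated as highly, such as control vector 3 with Htt-25Q 2 (0.515) and Htt-25Q 4 with Htt-72Q 4 (0.472). Others lay below 0, down to -0.578. Between Htt-72Q and control vector the pairs lay at 0.27 to 0.50, and the highest value across preparations was 0.0952. For Htt-25Q the correlations do not settle the pairing. Alternatives were DESeq2 1.42.0, other scalings, filters and thresholds, 2-group fits, blocks, a class term and leaving out libraries.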

Additional observations from a re-analysis of the deposited data

Results flagged for a closer look

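In 7 of 111 groups of 4 libraries examined (the sums and the named genes), the gap between the farthest library and the nearest of the others was a larger part of the group's range than Dixon's 95% critical value, which chance gives in about 1 group in 20. Of these, 4 were Htt-25Q 3, the only class B library of its group, which was the highest for Uqcr10 (273 CPM against 134 to 144 CPM in the others), Cox4i1 (693 CPM against 389 to 439 CPM), Cox7b (227 CPM against 160 to 169 CPM) and Cyc1 (105 CPM against 89.7 to 91.1 CPM). Htt-72Q 4 was the lowest for Uqcr10 (186 CPM against 299.7 to 317 CPM). Htt-72Q 3 was the highest for Atp5g2 (2.47 CPM against 0.68 to 0.79 CPM), and control vector 1 was the lowest for Cox6a1 (213 CPM against 270 to 281 CPM). No explanation was tested.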

How the results depend on the processing

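Against control vector, the number of genes called higher in Htt-72Q, 2 in the report, was 5 with DESeq2 and with upper-quartile scaling, 9 with total counts alone, 4 with a minimum count of 50, 9 at an adjusted p under 0.1, 0 in a fit of only the 2 groups, 10 with the replicate block by title number, 20 with the preparation block and 4 with library class as a term. Against Htt-25Q, the number called higher, 5 in the report, was 8 with total counts alone, 9 at an adjusted p under 0.1, 10 in a fit of only the 2 groups, 7 with the replicate block by title number and 3 with the preparation block. The share of all genes called higher moved too. With the preparation block it went from 9.44% to 13.4% against control vector and from 9.07% to 7.84% against Htt-25Q. For the other settings and the fits that leave out libraries this share is not given. Their counts therefore do not separate a change of the respiratory chain genes from a change over all genes. Leaving out each library in turn gave 0 to 7 genes higher and 0 to 1 lower against control vector, with medians of 0.13 to 0.38, and 0 to 12 higher and 0 lower against Htt-25Q, with medians of 0.13 to 0.35. For Htt-25Q against control vector it gave 0 calls, with medians of -0.13 to 0.11. Alternatives chosen after seeing the data left out control vector 1 and Htt-72Q 3 together, which gave 0 higher, 2 lower and a median of 0.0057 against control vector, and 9 higher and 1 lower (Ndufaf2, an assembly factor, at -0.54) against Htt-25Q; the 3 libraries of preparation 22, which gave 2 and 13 higher; and those of preparation 27_1, which gave 7 and 14 higher. The cause was not tested. In all, 196 of 234 alternative counts and medians stayed within 1.5 times the count or within the spread between libraries. A count of 0 in both fits is among those that stayed, as for each count of Htt-25Q against control vector. For medians the spread was 0.275 on the log2 scale, close to the Htt-72Q medians of 0.31 and 0.28 themselves. A median that fell to 0.13 thus stayed too. This tally therefore does not show that the counts of genes called higher were stable. For named genes 365 of 442 alternative values kept their side of the threshold, 51 lost it, 26 gained it and 0 changed direction. The values that kept it include those of Htt-25Q against control vector, which were far from the threshold in all 26 alternatives. All losses fell on called genes. Against control vector Ndufb7 lost its call in 11 of 26 alternatives and Ndufaf1 in 8. Against Htt-25Q Ndufaf1 lost it in 13, Sdha in 9, Ndufb7 in 6, Ndufaf6 in 3 and Uqcrb in 1. By title number the pairs of Htt-72Q with control vector correlated at 0.27 to 0.50. Those with Htt-25Q did not all exceed 0.1, so only preparation is taken to pair Htt-25Q. The pairs of Htt-25Q by preparation did not all stand out either. Control vector 3 and Htt-25Q 2, of different preparations, correlated at 0.515. Depth limits the lowest genes: Cox6b2, Cox7a1 and Atp5g2 had at most 184 counts over all libraries, and the 5 untested genes at most 64.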
